A study of Homo sapiens with 4 samples.

Results

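The TGF-beta, activin and BMP pathway genes are a list of 46 genes for ligands, extracellular regulators, receptors, SMADs, SMAD ubiquitin ligases, nuclear corepressors and ID factors. A gene entered the set if its symbol is in the deposited table of normalised read counts, and all 46 were found among the 17472 genes listed. Genes were tested where 2 or more libraries reached a value of 10, which 44 of the 46 did and INHBA and NOG did not. Poly(A) RNA came from H1 cells, an established human embryonic stem cell line. In the MEK5DD group (2 libraries) the H1 cells carried MEK5DD, a form of the kinase MAP2K5 (MEK5) in which a pair of serines was changed to aspartate, delivered by lentivirus and selected with puromycin. The WT group (2 libraries) was H1 cells without MEK5DD. All 4 libraries were from cells in E8, a defined medium that itself supplies TGF-beta together with FGF2 and insulin. The MEK5DD group is 1 selected line per the labels, there is no control line with an empty lentivirus among the samples, and the labels do not say whether replicates were separate cultures, so a p-value here reflects only how far these libraries spread, which may be technical. The series title writes MEK4DD where every sample label writes MEK5DD.

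Libraries held 17539654 and 15756339 recovered reads for MEK5DD and 17628945 and 14908486 for WT. MAP2K5, the introduced gene, had a normalised read count of 3382 and 3558 in MEK5DD and 344 and 315 in WT libraries. That is 10.52-fold higher in MEK5DD (limma, adjusted p = 5.91e-11), and gene counts do not separate the introduced from the native transcript. Chi-square per degree of freedom over genes was 6.09 between the MEK5DD replicates and 1.87 between the WT replicates. Markers of pluripotent cells were all present: 1 of 10 rose (NANOG) and 1 fell (SOX2), against 7.69% and 6.47% of all genes tested. The summed count of these markers was 138686 to 146306 in MEK5DD and 142491 to 144604 in WT.

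TGF-beta family ligands are secreted dimers that bring together type II and type I receptor kinases, and the type I receptor then phosphorylates receptor SMADs. SMAD2 and SMAD3 carry the signal of TGF-beta, activin and NODAL, while SMAD1, SMAD5 and SMAD9 carry that of BMPs, and both classes enter the nucleus with SMAD4. Primed human pluripotent cells depend on the activin and NODAL branch for self-renewal, and BMP signalling moves them towards extraembryonic and mesodermal fates. ID proteins, which lack a DNA-binding region and sequester basic helix-loop-helix factors, are classical BMP targets. SMAD6, SMAD7 and BAMBI are feedback inhibitors that the pathway itself induces in many cell types.

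Among the 44 tested genes, 6 rose and 5 fell in MEK5DD cells. The rises were TGFB1, the pseudoreceptor gene BAMBI, ID1, SMAD6 and the BMP receptor genes ACVR1 and BMPR2. The falls were the activin antagonist gene FST, ID2, the ligand gene GDF11, ID3 and the activin receptor gene ACVR1B. All changes were moderate: log2 fold changes of the tested members ran from -0.70 (FST) to 0.84 (TGFB1), and 0 of 44 reached a 2-fold change. No receptor SMAD gene, latent TGF-beta binding gene, ubiquitin ligase gene or nuclear corepressor gene passed the test.

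The 11 calls are 25% of the members tested, against 14.2% of all 15721 genes tested (limma on log2(value + 1), Benjamini-Hochberg adjusted p below 0.05). Called higher were 6 of 44, against a background of 7.69%, and called lower 5 of 44, against 6.47%. These shares are the background for the counts by role below too, and no role was tested as a set. The median log2 fold change was 0.03 over the members and -0.002 over all genes, and the median size regardless of sign was 0.16 over the members and 0.17 over all genes. In 27 of 44 members (61.4%) the MEK5DD values lay wholly on one side of the WT values, as they did in 56.2% of all genes. Of the 33 uncalled members, 17 overlapped, 8 were separate and higher in MEK5DD, and 8 separate and lower. The counts moved with the library left out: 10 rose and 7 fell with MEK5DD replicate 1 left out, 7 and 8 with MEK5DD replicate 2, 3 and 2 with WT replicate 1, and 4 and 2 with WT replicate 2 left out. Fits that left out a MEK5DD library took their spread from the WT pair, the closer pair (chi-square per degree of freedom 1.87 against 6.09). Their adjusted p-values can therefore be too small, also where they are the lowest over the alternatives. In a fit with no mean-variance trend the calls were 2 and 1, namely TGFB1 and BAMBI higher and FST lower.

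**Figure D1:**
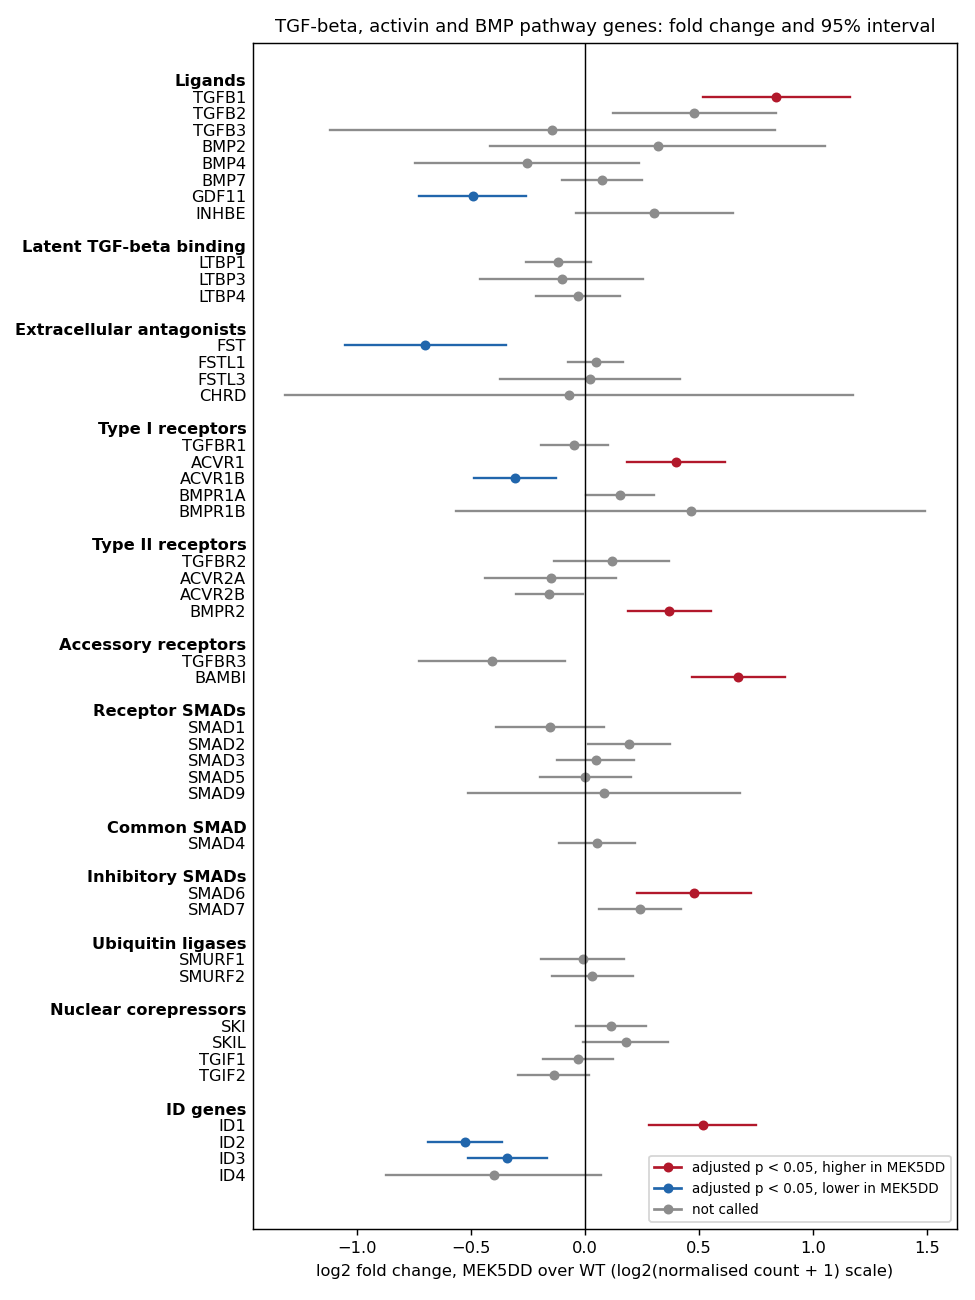
Log2 fold change of MEK5DD over WT for the 44 tested members, grouped by role down the page. Points are limma estimates, bars are 95% intervals, red marks the 6 members that rose, blue the 5 that fell and grey those not called. Changes lie between -0.70 and 0.84, and the receptor SMADs sit close to 0.

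Promoter windows were read for the 6 genes with the largest called changes (TGFB1, BAMBI and ID1 higher, and FST, ID2 and GDF11 lower) and for the rest of the ID family. Each is the 250 bases before the gene start in RefSeq (GRCh38.p14), on the gene's own strand and read 5′ to 3′. In GENCODE, 250 bases of the ID3 window, 220 of FST, 202 of ID2, 179 of BAMBI and 6 of ID1 lie in an exon of the same gene, so that RefSeq and GENCODE place these starts differently. The 4 windows with at most 30 such bases are shown. Capitals mark the SMAD box CAGAC and the GC-rich SMAD motif GGCGCC, searched on both strands. CAGAC or its reverse complement occurs in 38% of the 35116 RefSeq promoter windows of this length, and GGCGCC in 16.4%.
TGFB1, chr19:41353923-41354172, minus strand: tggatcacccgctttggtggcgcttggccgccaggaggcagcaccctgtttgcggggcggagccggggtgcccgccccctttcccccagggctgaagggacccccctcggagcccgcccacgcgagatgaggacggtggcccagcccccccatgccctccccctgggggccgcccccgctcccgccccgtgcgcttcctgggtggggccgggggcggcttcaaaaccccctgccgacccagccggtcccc
GDF11, chr12:55742872-55743121, plus strand: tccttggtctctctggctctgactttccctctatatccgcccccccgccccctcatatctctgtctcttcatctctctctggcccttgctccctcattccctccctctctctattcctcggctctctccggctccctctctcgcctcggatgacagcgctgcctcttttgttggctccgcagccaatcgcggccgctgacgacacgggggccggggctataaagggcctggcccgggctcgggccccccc
ID1, chr20:31605039-31605288, plus strand: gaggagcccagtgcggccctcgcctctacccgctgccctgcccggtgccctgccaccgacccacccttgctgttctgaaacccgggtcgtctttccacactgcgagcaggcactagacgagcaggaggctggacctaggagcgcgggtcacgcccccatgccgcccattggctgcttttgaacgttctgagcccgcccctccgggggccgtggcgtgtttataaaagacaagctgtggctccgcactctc
ID4, chr6:19837120-19837369, plus strand: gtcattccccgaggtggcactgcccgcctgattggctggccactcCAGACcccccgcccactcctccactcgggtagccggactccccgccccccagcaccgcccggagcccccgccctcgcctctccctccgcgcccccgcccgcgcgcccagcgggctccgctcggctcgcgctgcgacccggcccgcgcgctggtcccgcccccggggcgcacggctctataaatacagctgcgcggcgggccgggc

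BAMBI had 2 SMAD boxes and 3 GC-rich SMAD motifs in its window, ID3 and ID4 had 1 SMAD box each, and TGFB1, FST, GDF11, ID1 and ID2 had neither motif. The BAMBI window was also the richest in G and C of those read, at 81.2%. Of 41 members with a RefSeq window, some with several, 19 had a SMAD box and 16 a GC-rich SMAD motif in at least 1. The shares over all RefSeq windows count single windows, so they are no background for these counts by gene. Letters that match a motif do not show binding, and a window without a match says nothing about sites elsewhere. The E-box CANNTG, the core bound by basic helix-loop-helix factors, occurred once in the windows of FST, ID2 and ID4, against 61.8% of all windows.

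Of the 9 ligand genes, 8 were tested, 1 rose and 1 fell, against 7.69% and 6.47% of all genes tested. TGFB1 encodes the founding ligand of the family and lies at chromosome 19, 41301587 to 41353911 (GRCh38). Its normalised read count was 161 and 157 in MEK5DD libraries, against 84.6 and 92.7 in WT libraries, so each MEK5DD value was well above both WT values (means 159 ± 2.37 and 88.6 ± 5.76, SD, n = 2 each). The rise was 1.79-fold (log2 0.84, SE 0.15, limma adjusted p = 0.00263) and passed in all 15 alternatives, with adjusted p between 1.40e-05 and 0.0406. HNRNPUL1, on the opposite strand, overlaps 6.64% of the exon bases of TGFB1 and had 5863 and 5638 in MEK5DD and 6005 and 5964 in WT libraries. The sources used here do not state the strand setting of the counting, so reads from such overlaps cannot be assigned.

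GDF11 encodes a ligand that signals mainly through SMAD2 and SMAD3 and patterns the posterior body axis in mice. It lies at chromosome 12, 55743280 to 55757278, and had a normalised read count of 274 and 314 in MEK5DD, against 401 and 425 in WT libraries. The 1.41-fold lower level (log2 -0.49, SE 0.11, adjusted p = 0.00954) missed the threshold when WT replicate 2 was left out (adjusted p = 0.0757) and when the fit had no trend (adjusted p = 0.105), within a range of 1.35e-06 to 0.105 over the alternatives. SARNP, on the opposite strand, shares 4.46% of the exon bases of GDF11 and was counted at under 10 in every library.

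Per kb of exon, BMP7 was the highest ligand transcript of the set. Its level per kb was 192 in MEK5DD and 183 in WT cells (group means), ahead of TGFB1 with 49.2 and 27.4. BMP7 had a normalised read count of 1095 and 991 in MEK5DD and 1017 and 963 in WT libraries, and these overlap. TGFB2, a close relative of TGFB1, had 104 and 115 in MEK5DD and 79.3 and 77.1 in WT libraries, groups that did not overlap. Its log2 fold change of 0.48 (95% interval 0.12 to 0.84) was not called (adjusted p = 0.072), though it passed after quantile normalisation (0.04995) and with a replicate term (0.0498), within 0.0498 to 0.328 over the alternatives.

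INHBE, which encodes an inhibin beta subunit best known from liver, had 134 and 156 in MEK5DD and 129 and 106 in WT libraries (log2 0.30, adjusted p = 0.236). BMP4, the ligand often used to drive pluripotent cells to amnion-like and mesodermal fates, had 47.3 and 50.8 in MEK5DD and 68.7 and 49.99 in WT libraries (log2 -0.25, 95% interval -0.74 to 0.24). BMP2 and TGFB3 stood under 30 in every library. INHBA, the activin A subunit gene, was below the filter at 6.36 and 5.98 in MEK5DD and 9.69 and 13.5 in WT libraries. For these low genes the reads limit what could be seen: the interval of TGFB3 runs from -1.12 to 0.83 on the log2 scale.

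Latent TGF-beta binding proteins tether the inactive ligand in the matrix, and 0 of their 3 genes passed the limma test, also with edgeR and DESeq2 and at an unadjusted p under 0.05. LTBP1, the highest of them per kb, had a normalised read count of 2164 and 2088 in MEK5DD and 2264 and 2346 in WT libraries. The groups did not overlap, with the MEK5DD values lower, and the log2 fold change was -0.12 (95% interval -0.26 to 0.03). Without MEK5DD replicate 1 LTBP1 passed the threshold (adjusted p = 0.0455; 0.0455 to 0.814 over the alternatives). LTBP4 (log2 -0.03) and LTBP3 (log2 -0.10) overlapped between the groups.

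Among the extracellular antagonists, 1 of 4 tested genes was called, a fall, against 6.47% of all genes tested. FST encodes follistatin, which binds and neutralises activins and GDF11, and lies at chromosome 5, 53480409 to 53487134. It had 74.5 and 71.8 in MEK5DD libraries, against 123 and 116 in WT libraries, so the pairs were tight and far apart. FST fell 1.62-fold (log2 -0.70, SE 0.16, adjusted p = 0.013), which DESeq2 (adjusted p = 0.077) and the fit leaving out WT replicate 1 (adjusted p = 0.086) did not call, over a range of 0.00185 to 0.086. The ligand gene GDF11 and its antagonist gene FST were thus both lower in MEK5DD cells.

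FSTL1, a secreted follistatin-like glycoprotein, was the most abundant transcript of the whole set per kb, at 1192 in MEK5DD and 1154 in WT cells (group means). Its 10424 and 10389 in MEK5DD and 10091 and 10058 in WT libraries were separate, but the difference was small (log2 0.05, 95% interval -0.07 to 0.17, adjusted p = 0.641). FSTL3, another activin binder, had 80.9 and 77.7 in MEK5DD and 71.3 and 85.4 in WT libraries. The BMP antagonist gene CHRD had 15.4 and 4.98 in MEK5DD and 7.05 and 12.5 in WT libraries. NOG, which encodes noggin, was below the filter with 7.27 and 3.99 in MEK5DD and 8.81 and 4.17 in WT libraries. CHRD and NOG, both BMP antagonist genes, thus stayed under 20 in every library, and their levels could not be told apart at this depth.

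**Figure D2:**
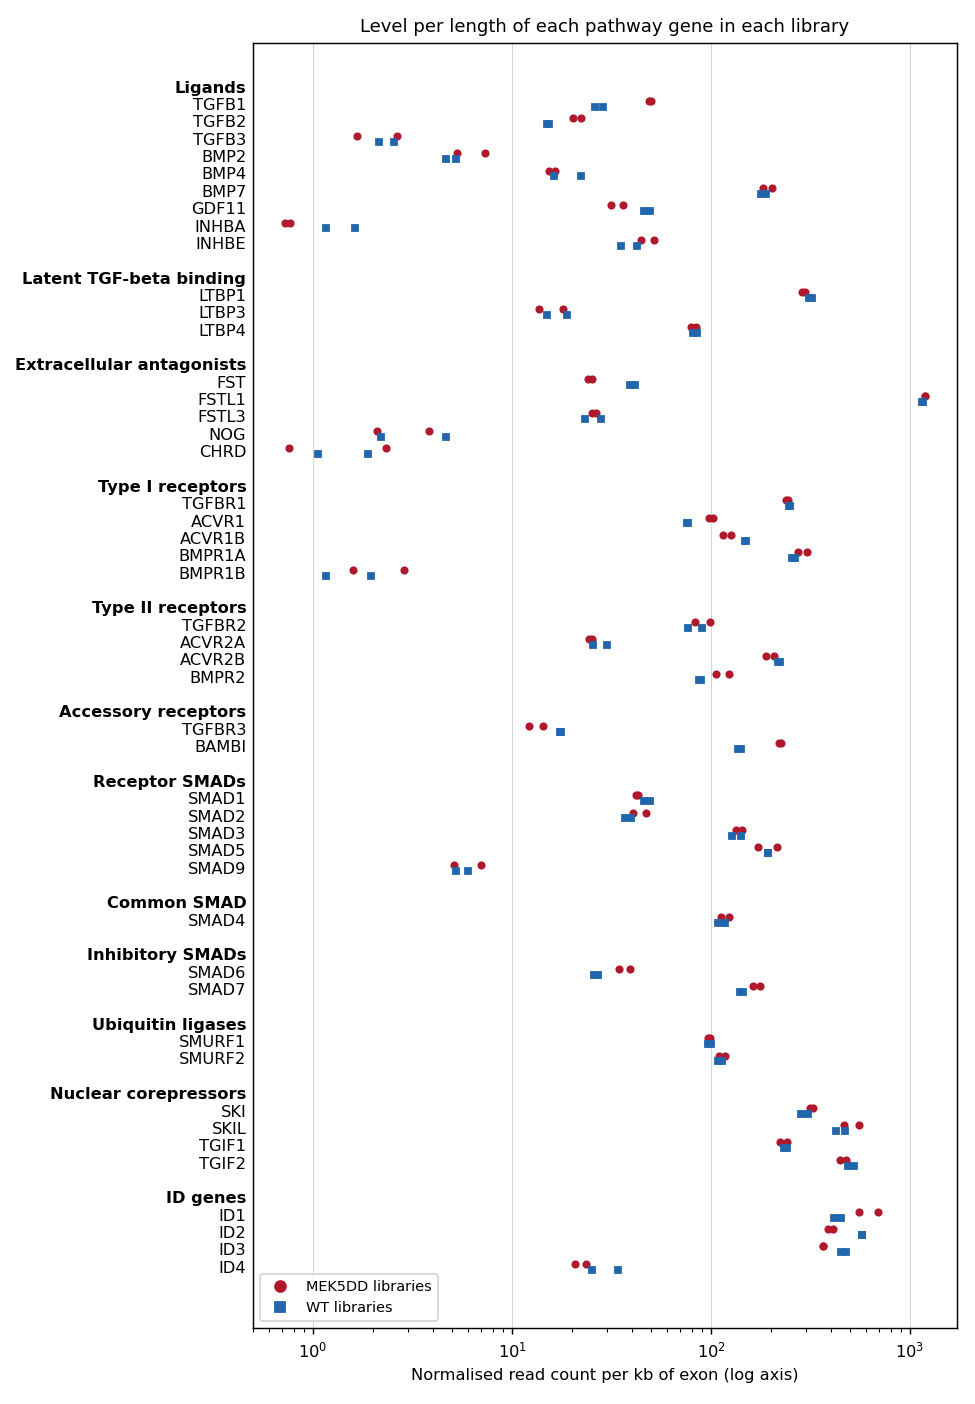
Normalised read count per kb of exon (log axis) of all 46 members in each library, grouped by role down the page, with MEK5DD libraries as red circles above WT libraries as blue squares. FSTL1 is highest, at 1192 in MEK5DD and 1154 in WT cells (group means).

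Receptor genes held 2 rises and 1 fall, where 7.69% of all genes tested rose and 6.47% fell. Of 5 type I receptor genes, ACVR1 rose and ACVR1B fell, and of 4 type II receptor genes BMPR2 rose. ACVR1 encodes ALK2, a BMP type I receptor (chromosome 2, 157736444 to 157875862), and had 392 and 408 in MEK5DD libraries, against 305 and 301 in WT libraries. It rose 1.32-fold (log2 0.40, SE 0.10, adjusted p = 0.0183). Adjusted p was above the threshold with DESeq2 (0.081), with no trend (0.0913) and with either WT library left out (0.11 for replicate 1 and 0.139 for replicate 2), and the lowest over the alternatives was 0.00151.

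ACVR1B encodes ALK4, a type I receptor for activin and NODAL (chromosome 12, 51951667 to 51997078). It had 715 and 655 in MEK5DD, against 844 and 849.9 in WT libraries, and every MEK5DD value was below both WT values. It fell 1.24-fold (log2 -0.31, SE 0.08, adjusted p = 0.0273). The same 4 alternatives as for ACVR1 ended its call, with adjusted p from 0.0807 (DESeq2) to 0.233 (without WT replicate 2; 0.202 without WT replicate 1), and the lowest adjusted p over the alternatives was 3.47e-05.

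BMPR2, the main BMP type II receptor gene (chromosome 2, 202376936 to 202567751), had 1256 and 1463 in MEK5DD libraries, against 1058 and 1039 in WT libraries. It rose 1.29-fold (log2 0.37, SE 0.08, adjusted p = 0.0119), with a log2 fold change of 0.48 when MEK5DD replicate 1 was left out and 0.26 when MEK5DD replicate 2 was. Adjusted p was above the threshold with no trend (0.163) and with either WT library left out.

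The BMP type I receptor gene BMPR1A, the highest type I transcript per kb, had 3131 and 3466 in MEK5DD and 2922 and 3006 in WT libraries. These groups did not overlap, and its log2 fold change of 0.15 (adjusted p = 0.169) passed only without MEK5DD replicate 1 (adjusted p = 0.000119; 0.000119 to 0.665 over the alternatives). ACVR2B, a type II receptor for activin and NODAL and the highest type II transcript per kb, had 2964 and 3262 in MEK5DD and 3495 and 3434 in WT libraries. Its log2 fold change was -0.16 (95% interval -0.30 to -0.01, adjusted p = 0.152), and it passed without MEK5DD replicate 2 (adjusted p = 7.72e-05; 7.72e-05 to 0.626 over the alternatives). TGFBR1, the TGF-beta type I receptor gene, differed little (log2 -0.05, 95% interval -0.19 to 0.10), and TGFBR2 overlapped between the groups (log2 0.12). ACVR2A, another activin type II receptor gene, was at log2 -0.15 (95% interval -0.44 to 0.14). BMPR1B stood under 20 in every library.

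Summed per kb, transcripts of the 3 BMP type I receptors (ACVR1, BMPR1A and BMPR1B) were 1.03 and 1.14 times those of TGFBR1 and ACVR1B together in MEK5DD libraries, against 0.848 and 0.851 in WT libraries. ACVR1 over ACVR1B was 0.548 and 0.623 in MEK5DD, against 0.361 and 0.354 in WT libraries. BMPR2 over ACVR2B was 0.424 and 0.449 in MEK5DD, against 0.303 in both WT libraries. ACVR1, ACVR1B and BMPR2 had passed the test before these ratios were formed, so the ratios restate those calls. Each separated the groups, and the exact permutation test over samples, two-sided, gave p = 0.333, the smallest that 2 against 2 libraries allow. Among the receptor SMADs, SMAD2 and SMAD3 over SMAD1, SMAD5 and SMAD9 per kb was 0.793 and 0.719 in MEK5DD, against 0.688 and 0.717 in WT libraries. That ratio was below 1 in every library, and MEK5DD replicate 2 (0.719) was close to WT replicate 2 (0.717). SMAD2 was divided by 36.4 kb of exon, against 9.11 kb for SMAD3 and 9.04 kb for SMAD5, which understates SMAD2. The level below 1 therefore does not show which branch has more SMAD transcript. No gene in the ratio was called, so no shift between the branches can be read from it. INHBA over FST per kb was 0.0305 and 0.0298 in MEK5DD and 0.0281 and 0.0419 in WT libraries, which overlap (exact permutation p = 1). Receptor protein and its activity were not measured.

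Of the 2 accessory receptor genes BAMBI rose. It encodes a pseudoreceptor without a kinase domain that blocks TGF-beta and BMP signalling, and lies at chromosome 10, 28677342 to 28682939. Its normalised read count was 519.8 and 510.3 in MEK5DD libraries, against 328 and 318 in WT libraries (means 515 ± 6.68 and 323 ± 7.06, SD, n = 2 each). BAMBI rose 1.59-fold (log2 0.67, SE 0.09, adjusted p = 0.000559), and, like TGFB1, it passed in all 15 alternatives, with adjusted p from 5.15e-09 to 0.0462. TGFBR3, the TGF-beta coreceptor betaglycan, had 105 and 125 in MEK5DD and 151 and 153 in WT libraries. That log2 fold change of -0.41 was not called (adjusted p = 0.0897), except without MEK5DD replicate 2 (adjusted p = 0.0157; 0.0157 to 0.343 over the alternatives).

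The 5 receptor SMAD genes and the shared partner SMAD4 held 0 calls with limma, edgeR or DESeq2 and 1 unadjusted p under 0.05 (SMAD2), with log2 fold changes between -0.15 (SMAD1) and 0.19 (SMAD2). SMAD4 had 1610.1 and 1466 in MEK5DD and 1543 and 1424 in WT libraries (log2 0.05, 95% interval -0.12 to 0.22). SMAD3 had 1222 and 1307 in MEK5DD and 1167 and 1283 in WT libraries (log2 0.05, 95% interval -0.12 to 0.22). The upper bound of 0.22 in these 2 genes lies below the estimates for TGFB1 (0.84) and BAMBI (0.67).

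SMAD1 had 255 and 261 in MEK5DD and 277 and 298 in WT libraries, and SMAD9 stood under 40 in every library with an interval of -0.51 to 0.68. SMAD5, the highest receptor SMAD per kb, showed how far the MEK5DD libraries could part. It had 1565 and 1941 in MEK5DD libraries, on either side of 1739.5 and 1740.4 in WT libraries. Its log2 fold change was 0.16 without MEK5DD replicate 1 (adjusted p = 0.0351) and -0.15 without MEK5DD replicate 2 (adjusted p = 0.0384), against 0.002 over all 4 libraries (0.0351 to 0.999 over the alternatives). SMAD2 had 1474 and 1707 in MEK5DD and 1436 and 1343 in WT libraries, and its adjusted p of 0.154 became 2.72e-05 without MEK5DD replicate 1 (2.72e-05 to 0.656 over the alternatives). Across the 44 members the median gap between replicates was 0.13 on the log2 scale in MEK5DD and 0.09 in WT, and 0.15 and 0.10 over all genes tested. The gap was wider in MEK5DD for 29 of the 44 members and for 9796 of all 15721 genes tested, a like share.

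Of the inhibitory SMAD genes, SMAD6 rose and SMAD7 was not called. SMAD6 preferentially restrains BMP receptors and lies at chromosome 15, 66702228 to 66782848. It had 337 and 294 in MEK5DD libraries, against 220.2 and 231 in WT libraries, a 1.39-fold rise (log2 0.48, SE 0.12, adjusted p = 0.016). DESeq2 (adjusted p = 0.0547), the fit with no trend (0.107) and the fit leaving out WT replicate 1 (0.094) did not call it, and the lowest over the alternatives was 9.42e-05. SMAD7, which restrains both branches, had 883 and 813 in MEK5DD and 732 and 699.9 in WT libraries. Its groups did not overlap, and its log2 fold change of 0.24 (95% interval 0.06 to 0.42) missed the threshold (adjusted p = 0.071) except without MEK5DD replicate 2 (adjusted p = 0.000869) and in a fit with a replicate term (0.000869 to 0.477 over the alternatives).

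SMURF1 and SMURF2, ubiquitin ligases that degrade SMADs and receptors, were near their WT levels with log2 fold changes of -0.01 and 0.03. TRRAP, on the opposite strand, overlaps 11.7% of the exon bases of SMURF1. The TRRAP count was 1815 and 2058 in MEK5DD and 2523 and 2427 in WT libraries, and reads from the overlap cannot be assigned. SMURF2, the higher per kb, had 764 and 814 in MEK5DD and 754 and 788 in WT libraries. Of these 2 genes and the 4 nuclear corepressor genes, 0 were called by limma, edgeR or DESeq2, and 0 had an unadjusted p under 0.05. TGIF2 and SKIL were the highest per kb, TGIF2 at 459.7 in MEK5DD and 506 in WT cells and SKIL at 510.2 in MEK5DD and 449.8 in WT cells (group means). TGIF2 had 1803 and 1676 in MEK5DD and 1849 and 1978 in WT libraries (log2 -0.14, adjusted p = 0.24), and passed without MEK5DD replicate 1 (adjusted p = 0.00796; 0.00796 to 0.824 over the alternatives). SKIL, a SMAD corepressor that TGF-beta itself induces, had 3614 and 4327 in MEK5DD and 3316 and 3684 in WT libraries. Those values overlap, with a log2 fold change of 0.18, and without MEK5DD replicate 1 the adjusted p was 1.01e-08 (1.01e-08 to 0.762 over the alternatives). The corepressor genes SKI and TGIF1 were at log2 0.11 (95% interval -0.04 to 0.27) and -0.03 (-0.18 to 0.12).

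**Figure D3:**
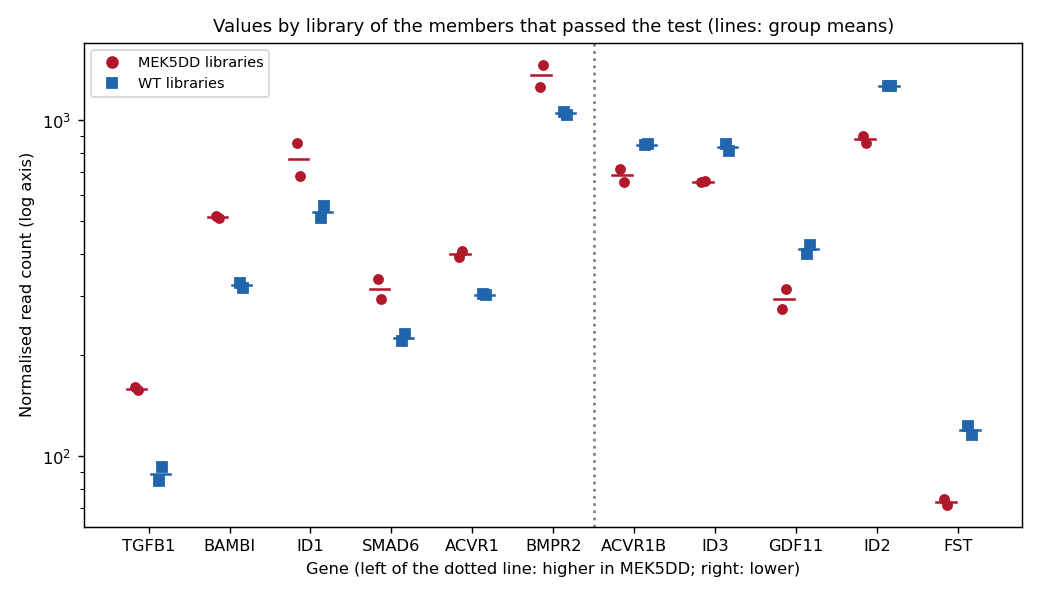
Normalised read count (log axis) of the 11 members that passed the test, with MEK5DD libraries as red circles and WT libraries as blue squares and short lines at the group means. In all 11 the MEK5DD and WT libraries do not overlap, and the MEK5DD values of ID1 (855 and 684) and BMPR2 (1256 and 1463) are the most spread among the rises.

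ID genes moved in opposite directions. Of 4 ID genes 1 rose (ID1) and 2 fell (ID2 and ID3), against 7.69% and 6.47% of all genes tested. ID4 was not called. The normalised read count of ID1 (chromosome 20, 31605283 to 31606515) was 855 and 684 in MEK5DD libraries, against 513 and 556 in WT libraries. ID1 rose 1.43-fold (log2 0.52, SE 0.11, adjusted p = 0.00731), with both MEK5DD values above both WT values (means 769 ± 121 and 534 ± 30.8, SD, n = 2 each). The size depended on the MEK5DD library: it was log2 0.36 when MEK5DD replicate 1 was left out and 0.68 when MEK5DD replicate 2 was. The call held in every fit that left out 1 library and missed the threshold when the fit had no trend (adjusted p = 0.149; 1.24e-13 to 0.149 over the alternatives).

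ID2 (chromosome 2, 8678845 to 8684453) had 899.6 and 855 in MEK5DD libraries, against 1261 and 1268 in WT libraries, and the MEK5DD pair lay far below the WT pair (means 877 ± 31.4 and 1264 ± 4.44, SD, n = 2 each). It fell 1.44-fold (log2 -0.53, SE 0.07, adjusted p = 0.000604), in every fit that left out 1 library, and missed the threshold without the trend (adjusted p = 0.0629; 1.80e-14 to 0.0629 over the alternatives). ID2-AS1, an antisense gene that shares 1.72% of the exon bases of ID2, had 9.09 and 10.96 in MEK5DD and 12.3 and 11.5 in WT libraries.

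ID3 (chromosome 1, 23557918 to 23559794) had 654 and 658 in MEK5DD libraries, against 852 and 810.3 in WT libraries. It fell 1.27-fold (log2 -0.34, SE 0.08, adjusted p = 0.0144). Leaving out WT replicate 1 (adjusted p = 0.226) or WT replicate 2 (0.0947) ended the call, as did a fit with no trend (0.116), and the lowest over the alternatives was 0.00012. ID4 was far lower than the others per kb, with a normalised read count of 55.4 and 48.8 in MEK5DD and 80.2 and 59.4 in WT libraries (log2 -0.40, 95% interval -0.87 to 0.07).

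ID1, ID2 and ID3 had passed the test before the ID ratio and the shares of the summed ID level were formed. The ratio and shares therefore restate those calls. ID1 over ID2 was 0.951 and 0.7995 in MEK5DD libraries, against 0.406 and 0.439 in WT libraries, a 2.06-fold higher ratio. Per kb, ID1 held 46.6% and 41.7% of the summed ID level in MEK5DD, against 27.8% and 30.03% in WT libraries. ID2 held 27.4% and 29.2% in MEK5DD and 38.2% and 38.3% in WT libraries, and ID3 24.4% and 27.5% in MEK5DD and 31.7% and 30.02% in WT libraries. Per kb, ID1 thus led in MEK5DD libraries and ID2 in WT libraries, while by normalised read count, not scaled by length, ID2 exceeded ID1 in all 4 libraries. The ID sum per kb was 1489 and 1329 in MEK5DD and 1496 and 1502 in WT libraries, so both MEK5DD sums were below both WT sums, the first by little. The exact two-sided permutation test of the ID1 over ID2 ratio gave p = 0.333, the smallest possible here.

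**Figure D4:**
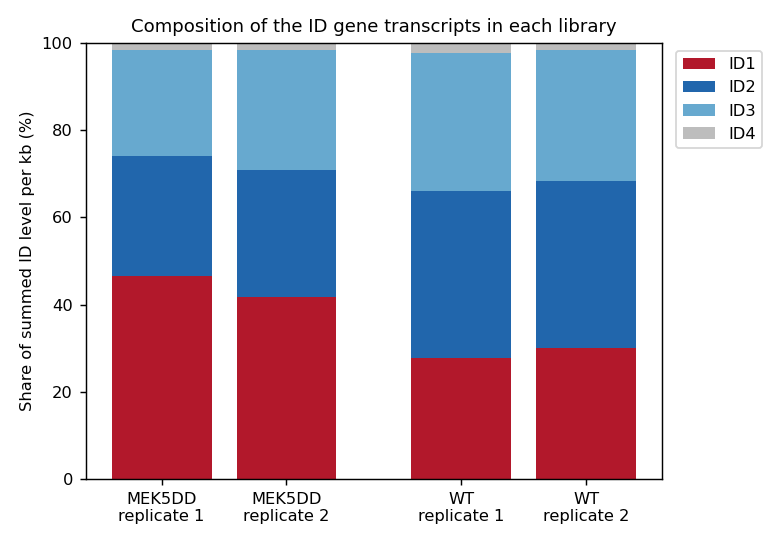
Share of the summed ID level per kb of exon (percent) held by ID1, ID2, ID3 and ID4 in each library, MEK5DD libraries on the left. ID1 takes 46.6% and 41.7% in MEK5DD, against 27.8% and 30.03% in WT libraries.

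Other genes of the pathway were taken from a list of 98, of which 70 are in the table and 63 were tested. Of these 63, 10 rose and 8 fell, with a median log2 fold change of -0.01. Over all 15721 genes tested 7.69% rose and 6.47% fell, which is the background for the counts by sublist too. The 9 tested ligand genes held 4 rises and 1 fall. NODAL, the ligand that signals through ACVR1B and ACVR2B, had 1020.4 and 917 in MEK5DD, against 347 and 311 in WT libraries (log2 1.55, SE 0.10, adjusted p = 7.72e-07). LEFTY1, a feedback inhibitor of NODAL that shares close sequence with LEFTY2, had 349.8 and 355 in MEK5DD and 148 and 155 in WT libraries (log2 1.21). GDF15, a stress-induced ligand, had 287 and 268 in MEK5DD, against 107 and 94.8 in WT libraries (log2 1.45). BMP1, a protease that cleaves chordin and is no ligand in spite of its name, was the fall (log2 -0.48, adjusted p = 0.0446), a call lost in 6 of 15 alternatives: DESeq2, quantile normalisation, no trend, and 3 of the 4 fits that left out a library (all but that without MEK5DD replicate 2).

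The 6 tested receptor and coreceptor genes held 1 rise (ACVR1C) and 1 fall (NEO1, log2 -0.35). ACVR1C, a type I receptor gene outside the receptor ratios above, had 40.9 and 64.8 in MEK5DD, against 25.5 and 21.9 in WT libraries (log2 1.09). The 17 extracellular regulator genes held 1 rise and 3 falls. VWC2, a secreted BMP antagonist, fell most of the extracellular regulators, with 99.0 and 107 in MEK5DD, against 233 in both WT libraries (log2 -1.17, SE 0.13, adjusted p = 0.000117). CHRDL1, another BMP antagonist, had 205 in both MEK5DD libraries, against 281 and 269 in WT libraries (log2 -0.42, adjusted p = 0.027). That call ended with DESeq2, with no trend and when either WT library was left out. The 17 intracellular regulator genes held 2 rises and 1 fall. The fall was USP9X, a deubiquitinase of SMAD4, with 5673 and 6807 in MEK5DD, against 8297 and 8593 in WT libraries (log2 -0.44). The USP9X call was lost when the fit had no trend (adjusted p = 0.146). The 8 nuclear partner genes held 0 rises and 2 falls, and the 6 target genes 2 rises and 0 falls. GATA3, which BMP induces, had 39.1 and 35.9 in MEK5DD, against 7.05 and 15.6 in WT libraries (log2 1.73, SE 0.39, adjusted p = 0.0109). Its log2 fold change ran from 1.21 to 2.26 over the alternatives, and it missed the threshold when the fit had no trend (adjusted p = 0.107). GATA2, on the same list of targets, was not called (log2 -0.17).

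Markers of other cell types were measured in the same libraries, where 7.69% of all genes tested were called higher and 6.47% lower. Of 6 tested fibroblast or feeder markers 3 rose (COL1A1, COL1A2 and TAGLN) and 0 fell. The sum of the 6 was 12248 to 12999 in MEK5DD and 10930 to 10959 in WT libraries. Most of that sum came from THY1 (log2 0.10) and FBLN1 (log2 0.03), which were not called. PDGFRB was lower and not called (log2 -0.39). COL3A1, DCN, LUM and POSTN, of the same list, were not analysed here. Of 5 neuroectoderm markers 1 rose and 4 fell, with sums of 8148 to 8679 in MEK5DD and 8073 to 8303 in WT libraries, most of them from NES. NES was the rise (log2 0.35), so the sums do not show the falls. These were SIX6 (log2 -2.72), SOX1 (-2.41), MAP2 (-2.13) and SOX3 (-1.32). Of 5 mesendoderm markers 2 rose and 1 fell, with sums of 5600.1 to 5882 in MEK5DD and 2828 to 2932 in WT libraries, most of them from KDR. Definitive endoderm markers (4 tested, 1 higher, 2 lower) summed to 115 to 126 in MEK5DD and 202 to 215 in WT libraries. Amnion or trophoblast markers (5 tested, GATA3 higher, and GABRP, IGFBP3 and KRT7 lower) summed to 334 to 339.9 in MEK5DD and 521 to 547 in WT libraries. The part of these markers in the changes of the pathway genes was not tested, and in bulk RNA a change in the share of cells and a change in RNA per cell cannot be told apart.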

How the data were processed

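The authors' deposited table holds 1 signal value per gene and library, a gene count normalised by the authors; hg38, DESeq2 1.26.0, featureCounts 1.5.3, STAR and Trimmomatic 0.36 are listed in the submitters' processing notes, whose role and order the sources used here do not give. Dividing each library by its smallest value gave whole reads for 100% of values (tolerance 0.001), and the table lists no gene at 0. Genes were compared with limma 3.58.1 (R 4.3.3) after a log2(value + 1) transform, using a mean-variance trend and no covariate, over 15721 genes that reached 10 in 2 or more libraries, two-sided, Benjamini-Hochberg adjusted over all genes with a threshold of 0.05. Fold changes are on that scale and so are understated for low genes. Levels per kb divide a value by the union of a gene's exons in GENCODE 29 (GRCh38), which understates genes with long rare exons such as SMAD2. Sensitivity fits used other pseudocounts, filters and scalings, a replicate term, each library left out, and edgeR 4.0.16 and DESeq2 1.42.0 on recovered reads. With 1 library left out, the lone library of its group is assumed to vary like the other group. The members, lists, test and naming rule were chosen with earlier results of these data known. The rule named every member, gave full values for called members and the highest per kb in each role, and took up to 4 rises and 4 falls of the other pathway genes with the largest change. ACVR1C and NEO1 were named in addition. Promoters are from RefSeq (GRCh38.p14); 41 of 46 members matched, and windows with over 30 bases in a GENCODE exon of the gene are not shown.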

Additional observations from a re-analysis of the deposited data

How the results depend on the processing

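Of the 11 called members, 2 (TGFB1 and BAMBI) passed in all 15 alternatives, 4 (with ID1 and ID2) in every fit that left out 1 library, and 0 changed direction in any alternative. With edgeR the member counts were the same, 6 higher and 5 lower. Without the mean-variance trend the counts were 2 higher and 1 lower among members, 4 and 1 among other pathway genes, and 249 and 190 among all genes. With DESeq2, 3 members, 5 other pathway genes and 589 of all genes were lower and 769 of all genes higher. Leaving out 1 library moved members higher between 3 and 10 and members lower between 2 and 8, other pathway genes lower between 2 and 16, and all genes between 665 and 2351 higher and 477 and 2257 lower.

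The difference of replicate 1 from replicate 2 correlated between MEK5DD and WT with r = 0.05 across genes. Low genes, with much counting noise, weigh as much as others in this r. It therefore cannot decide whether same-numbered libraries were paired. With a replicate block 10 members rose (TGFB2, SMAD2, SMAD7 and SKIL added) and 1616 of all genes fell.

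Sign changes were seen only in uncalled members. FSTL1 was at -0.027 after quantile normalisation, SMAD5 at -0.013 with upper-quartile factors and -0.022 after quantile normalisation, and CHRD at 0.12 with edgeR and 0.081 with DESeq2. With 1 library left out, log2 fold changes ran from -0.45 to 0.16 for TGFB3, from -0.30 to 0.10 for LTBP3, from -0.074 to 0.0097 for LTBP4, from -0.11 to 0.15 for FSTL3, from -0.44 to 0.66 for CHRD, from -0.0056 to 0.24 for TGFBR2, from -0.022 to 0.11 for SMAD3, from -0.15 to 0.16 for SMAD5, from -0.14 to 0.30 for SMAD9, from -0.016 to 0.12 for SMAD4, from -0.034 to 0.015 for SMURF1, from -0.013 to 0.079 for SMURF2, from -0.0901 to 0.027 for TGIF1. The cause of these moves was not tested.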
